A study of Mus musculus with 75 samples.

Results

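Glia of the submucosal plexus of the untreated mouse colon were set against glia of the myenteric plexus of the same gut region, gene by gene. The comparison used 10 of the 75 libraries of the series, 5 from each plexus, and these 10 are all untreated colon libraries. Libraries were assigned to the groups by the labels alone (untreated, colon, layer). The members and gene lists were chosen with earlier results of these data known, so counts over the lists are not independent support. All 10 came from adult mice of an eGFP reporter genotype, the sample names also carry the tag WT, and no injection was given (0 h). The submucosal libraries were from 3 females (F1, F2, F3) and 2 males (M1, M3), and the myenteric libraries from 2 females (F2, F3) and 3 males (M1, M2, M3). The letter gives the sex and the number is the one in the sample name. How the cells were separated is not given in the sources used here, and neither is the age beyond adult. The labels give no mouse identity for these libraries, so the p-values measure the spread between these samples.

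The enteric nervous system lies in the gut wall as a pair of ganglionated plexuses. The myenteric plexus sits between the circular and longitudinal muscle coats, and the submucosal plexus lies on the luminal side of the muscle, close to the epithelium, the lamina propria and its immune cells. Enteric glia surround the neurons of both plexuses and share with Schwann cells and astrocytes the transcription factor Sox10, the calcium-binding protein S100b and the intermediate filament Gfap. Cells isolated from the 2 layers can carry RNA of different neighbours, namely muscle and mesothelium on the outer side and epithelium and immune cells on the inner side, and the samples were checked for each.

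The promoters of 4 glial genes are shown because those genes did not move alike. Gfap, S100b and Col28a1 were lower in submucosal libraries, whereas Entpd2 was not. In GENCODE vM21 (GRCm38), Gfap is at chr11:102887336-102900912, S100b at chr10:76253853-76261159, Col28a1 at chr6:7997808-8192617 and Entpd2 at chr2:25395874-25401321, all protein-coding. None of the windows overlaps an annotated exon, and the Gfap window lies inside the span of a longer Gfap transcript. Each sequence is the 250 bases before a gene start in RefSeq (GRCm38.p6), written 5′ to 3′ on the gene's own strand. For Gfap and S100b that start differs from the start of the GENCODE span given above. Capitals mark the letters ACAAAG or their reverse complement, a core recognised by SOX-family factors.
Gfap, chr11:102897201-102897450, minus strand: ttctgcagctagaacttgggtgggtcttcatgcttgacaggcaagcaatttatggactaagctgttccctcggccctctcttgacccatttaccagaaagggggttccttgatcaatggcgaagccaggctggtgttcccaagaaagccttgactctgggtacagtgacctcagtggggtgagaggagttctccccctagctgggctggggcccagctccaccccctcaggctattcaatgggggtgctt
S100b, chr10:76253586-76253835, plus strand: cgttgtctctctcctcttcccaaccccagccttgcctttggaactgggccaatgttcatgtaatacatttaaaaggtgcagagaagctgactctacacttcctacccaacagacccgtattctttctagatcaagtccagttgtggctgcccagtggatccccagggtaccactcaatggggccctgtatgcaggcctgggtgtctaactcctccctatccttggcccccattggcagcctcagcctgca
Col28a1, chr6:8192618-8192867, minus strand: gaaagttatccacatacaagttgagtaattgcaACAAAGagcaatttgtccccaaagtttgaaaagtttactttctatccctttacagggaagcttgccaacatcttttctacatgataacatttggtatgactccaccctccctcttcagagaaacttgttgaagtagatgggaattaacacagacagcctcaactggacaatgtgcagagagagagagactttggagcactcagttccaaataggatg
Entpd2, chr2:25395624-25395873, plus strand: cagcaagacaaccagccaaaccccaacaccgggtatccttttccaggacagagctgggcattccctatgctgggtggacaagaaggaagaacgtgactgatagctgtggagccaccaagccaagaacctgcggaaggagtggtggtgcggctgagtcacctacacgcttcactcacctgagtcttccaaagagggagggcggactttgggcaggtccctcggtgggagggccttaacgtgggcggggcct
The motif was present once, on the printed strand or its complement, in the Col28a1 window and absent from the other windows, with no overlap with a second motif searched, TATAAA, which none of the printed windows held. Of the 25 genes of the glial core list, 18 matched the promoter table by symbol, and 5 of these (Sox2, Col28a1, Art3, Apoe and Sox6) had ACAAAG in at least 1 of their windows, 27.8%, against 18.6% of all 27025 genes in the table. TATAAA was found for 3 of the 18 (16.7%), against 14.3% of all genes. Several genes have more than 1 window, which raises both shares, and a match describes letters only.

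Total counts ran from 3392410 to 9002546 in myenteric and from 2547296 to 7154857 in submucosal libraries. Levels are given as CPM, counts scaled to a common library total after TMM normalization. Mitochondrially encoded RNA made up 5.35% to 16.5% of myenteric and 4.02% to 7.18% of submucosal counts. A pair of libraries stood apart from their groups. Submucosal M3 had little immune RNA, with a summed level of 742 CPM over the B and plasma cell list against 19229 to 45847 in the other 4 submucosal libraries, and 259.8 against 7011 to 11772 over the macrophage and dendritic cell list. That library also had the highest epithelial sum (16338 CPM over the general list) and the highest glial sum of its group (11471 CPM). Myenteric F3 carried epithelial RNA, at 4419 CPM against 47.8 to 559 in the other 4, and cell cycle RNA, at 1019 CPM against 79.4 to 130.1. Its epithelial sum exceeded that of submucosal F3, the lowest of the submucosal group at 3822 CPM. In the main fit, counts of genes called between the colon plexuses were also computed without these libraries. Counts of genes without overlap, per anchor and of regional differences were not.

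**Figure D1:**
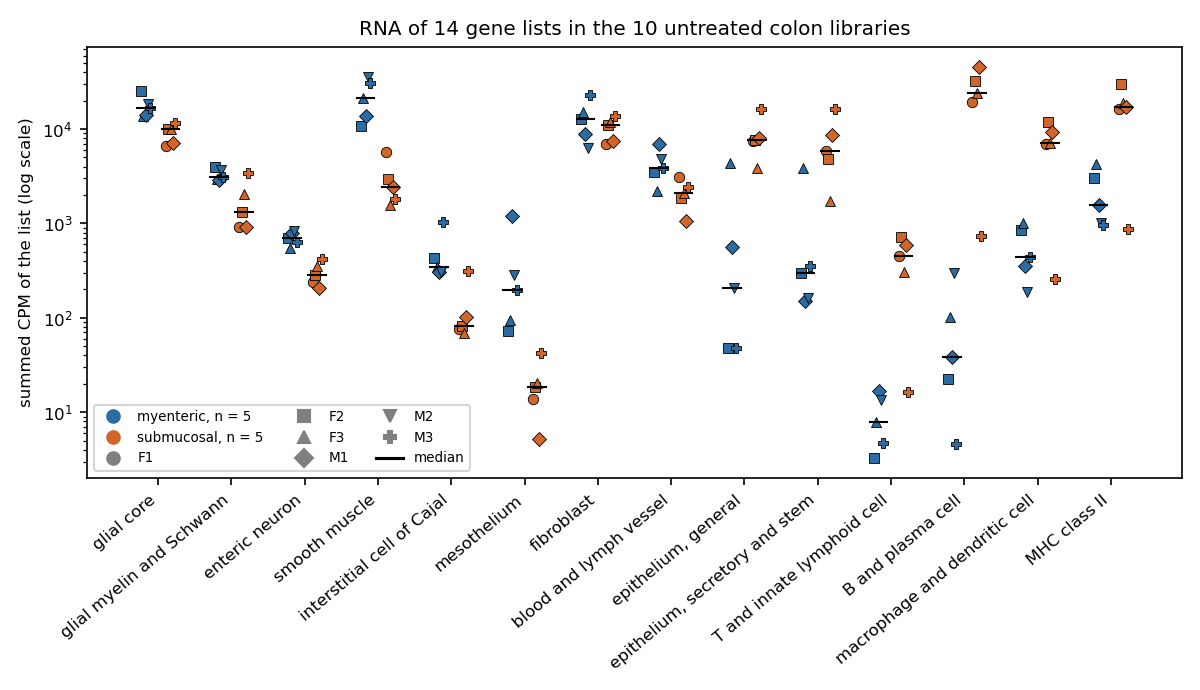
Summed level (CPM, log axis) of 14 gene lists in each of the 10 colon libraries; points are libraries, their shape gives sex and number, and black bars are medians of 5. Myenteric F3 sits among the submucosal points for both epithelial lists, and submucosal M3 sits among or near the myenteric points for the immune and MHC class II lists.

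Across the transcriptome the 2 plexuses differed widely. Of 14090 genes that passed the count filter, 1502 were higher in submucosal libraries (10.7%) and 1567 were lower (11.1%) at an adjusted p under 0.05 (edgeR quasi-likelihood test, Benjamini-Hochberg over all genes), 21.8% together. The median log2 fold change over all genes was -0.01. In 12.6% of genes the 5 submucosal values lay all above or all below the 5 myenteric values, and 617 of the higher and 866 of the lower genes did so. Without submucosal M3, 3129 genes passed, of which 2692 were among the 3069 (87.7% of the first set and 86.0% of the second). Without myenteric F3, 4045 passed and 2894 were shared (94.3% and 71.5%). Of the 93 genes named here that passed, 21 missed the threshold in at least 1 of the 10 fits that each left out 1 colon library, and those libraries are given beside each gene with the range of its adjusted p (edgeR). With the 10 colon libraries fitted alone, 1902 genes passed. With the mean levels of the immune and of the epithelial lists as covariates, 3 genes passed, and these levels moved with the plexus, so layer and carried RNA cannot be told apart in that fit.

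**Figure D2:**
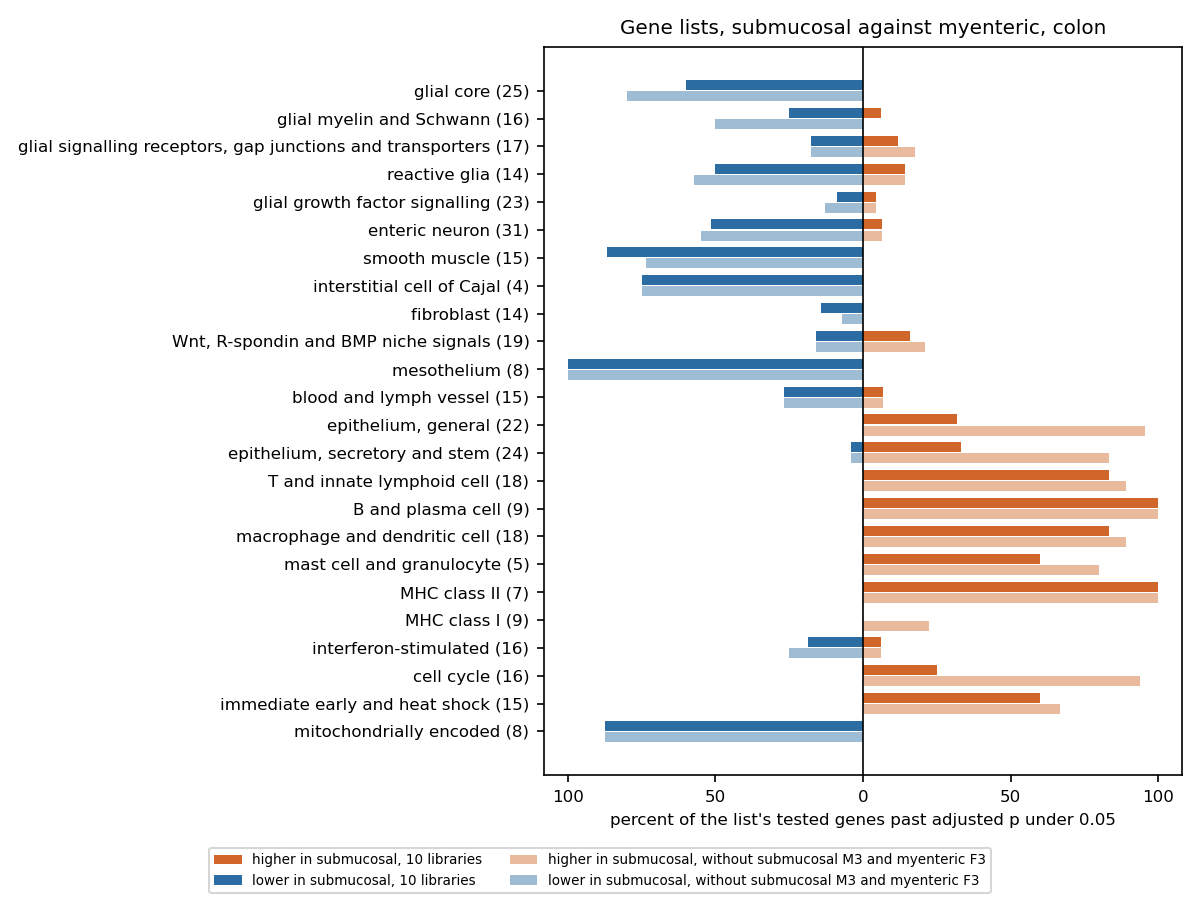
Percent of each list's tested genes (number in brackets) that passed an adjusted p under 0.05, to the right for higher and to the left for lower in submucosal libraries; dark bars use 10 libraries and pale bars leave out submucosal M3 and myenteric F3. The glial core list has bars on the lower side only (15 of 25, and 20 of 25 without the pair), and the epithelial and cell cycle bars are longer without the pair.

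Of 25 glial core genes, all of which were tested, 15 fell, none rose and 10 did not pass, with a median log2 fold change of -1.70 beside -0.01 over all genes, of which 11.1% fell. Without submucosal M3, 18 fell (median -2.27), and without both libraries 20 fell (median -2.35). The count was 11 without submucosal F1, F2 or M1 and with the 10 colon libraries alone, 12 without myenteric F2, and 14 to 17 without any other single library. Sox10 and S100b were detected in all 10 libraries, which shows glial RNA in each but not what share of the cells were glia. No gene of the list was higher at an unadjusted p under 0.05 either, and 19 were lower; DESeq2 called 17 lower and none higher. Tested for a difference of over 2-fold, 5 passed. In bulk RNA, fewer glia in a sample and less of a transcript per glial cell cannot be told apart. With immune and epithelial levels as covariates none of the 25 passed.

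Gfap, the intermediate filament, was 730.3 in F2, 213 in F3, 255 in M1, 575 in M2 and 419.8 in M3 CPM in myenteric libraries. In submucosal libraries it was 22.9 in F1, 29.7 in F2, 77.5 in F3, 18.1 in M1 and 99.7 in M3 CPM, with F3 and M3 the highest. Of the 25 it had the largest drop, with a log2 fold change of -3.14 (SE 0.47, adjusted p = 0.00019) and no overlap. Without submucosal M3 Gfap was at -3.55, and Col28a1 had the larger drop, at -3.75. S100b fell from 393 ± 111 to 75.1 ± 39.9 CPM (SD, n = 5 each), a log2 fold change of -2.39 (SE 0.42, adjusted p = 0.00073), again with no overlap.

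Sox2, a transcription factor of glial progenitors, changed by -2.40 (SE 0.54, adjusted p = 0.00368) on the log2 scale. Col28a1, a collagen chain found around peripheral glia, showed -2.49 (SE 0.70, adjusted p = 0.0141). Its submucosal M3 value of 75.2 CPM stood far above the other submucosal libraries, and without M3 the log2 fold change was -3.75. The lipid-binding protein Fabp7 (-2.09), the small heat shock protein Cryab (-2.03), the potassium channel Kcna1 (-2.06), the connexin Gjc3 (-2.16), the phosphatase receptor Ptprz1 (-1.97), the cadherin Cdh19 (-1.93) and the orphan receptor Gpr37l1 (-1.82) fell on the log2 scale with adjusted p between 0.00039 and 0.021. The nuclear receptor Rxrg (-1.26), the secreted Lgi4 (-1.34) and Art3 (-1.15) fell less, with adjusted p between 0.0246 and 0.0443. Gpr37l1 did not pass without submucosal F1, F2 or M1 (adjusted p 0.00118 to 0.0576 over the 10 fits), Lgi4 without myenteric F2, or submucosal F1, F2 or M1 (adjusted p 0.00338 to 0.0682 over the 10 fits), Rxrg without myenteric F2, or submucosal F1, F2 or M1 (adjusted p 0.0141 to 0.0797 over the 10 fits) and Art3 without myenteric F2, M1, M2 or M3, or submucosal F1, F2, F3 or M1 (adjusted p 0.00254 to 0.112 over the 10 fits).

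The other 10 glial core genes did not pass. Sox10 ran from 186 to 327 CPM in myenteric libraries, while its submucosal values were 26.6 in F1, 41.6 in F2, 148 in F3, 18.1 in M1 and 248 in M3 CPM. Submucosal M3 thus lay inside the myenteric range, and the log2 fold change of -1.55 (SE 0.59, adjusted p = 0.0653) became -2.26 (adjusted p = 0.00862) without it. Foxd3 (-1.70) and the sodium channel Scn7a (-1.35) also passed without M3 (Scn7a at -2.14), with adjusted p of 0.0153 and 0.00473. The neuregulin receptor Erbb3 (-0.95, adjusted p = 0.198), the endothelin receptor Ednrb (-1.13, 0.101) and Sox6 (-1.10, 0.166) had negative values that missed the threshold. Without M3 Erbb3 was -1.46 and still missed it (adjusted p = 0.05004). The orphan receptor Gpr37 varied widely within the groups, at 0.302 to 11.1 CPM in myenteric and 0 to 5.32 CPM in submucosal libraries (log2 fold change -1.88, SE 1.16, adjusted p = 0.266), and was -3.42 without M3 (adjusted p = 0.0627). The apolipoprotein Apoe (0.34, SE 0.40, adjusted p = 0.585), Entpd2 and Ngfr had values within 1 SE of 0.

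To set aside the difference in total glial RNA, the comparison was repeated with libraries scaled to 5 glial anchor genes, among them Sox10, S100b, Erbb3 and Cdh19. This gives levels per glial anchor RNA, not CPM, and it moves the median of all genes to 2.29. On this scale 76% of all genes were called higher in submucosal libraries and 0.958% lower, so a higher value is the common case and a lower one is rare. Of the glial core list, 3 genes were higher, 1 was lower and the median was -0.05. The anchors are themselves members of the list, which draws its median to 0. Their own log2 fold changes per anchor ran from -0.44 (S100b) to 0.75 (Erbb3), none past the threshold. The scale therefore depends on which anchors are taken. Genes named further on that were lower in CPM but had positive values per anchor are Mbp, Sorbs2, Gja1, Kcnj10, Gfra2, Col6a3, Lum, Sfrp1, Ifit1, Ifit2, Ifit3, mt-Nd2 and mt-Nd4. Of the core list, Erbb3, Lgi4, Rxrg, Art3, Scn7a, Ednrb and Sox6, among others, had values of opposite sign on the 2 scales as well.

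Gfap was the gene that stayed lower per anchor. The ratio of Gfap counts to the geometric mean of the anchor counts was 1.09 in F2, 0.552 in F3, 0.653 in M1, 1.03 in M2 and 0.805 in M3 in myenteric libraries. In submucosal libraries it was 0.393 in F1, 0.321 in F2, 0.324 in F3, 0.312 in M1 and 0.299 in M3. The submucosal values were tightly grouped, M3 included, none reached the lowest myenteric one, and the log2 fold change per anchor was -1.32 (SE 0.43, adjusted p = 0.00826).

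Entpd2, the ectonucleotidase NTPDase2 that hydrolyses extracellular ATP, went the other way. In CPM it was 204 in F2, 224 in F3, 160.3 in M1, 189 in M2 and 204 in M3 in myenteric libraries. In submucosal libraries it was 81.5 in F1, 163 in F2, 299 in F3, 92.1 in M1 and 562 in M3 CPM, with F3 and M3 above every myenteric library and F1 and M1 below every one. The log2 fold change was 0.29 (SE 0.43, adjusted p = 0.671), and -0.30 without M3. Per anchor, the spread closed. The ratio was 0.304 in F2, 0.582 in F3, 0.410 in M1, 0.339 in M2 and 0.391 in M3 in myenteric libraries, and 1.40 in F1, 1.77 in F2, 1.25 in F3, 1.59 in M1 and 1.68 in M3 in submucosal libraries. All 5 submucosal ratios exceeded all 5 myenteric ones, and the log2 fold change per anchor was 1.92 (SE 0.40, adjusted p = 0.00049), below the 2.29 of the median gene on this scale. Immune and epithelial RNA also differed between the groups, and their part in this ratio was not tested.

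Ngfr, the p75 neurotrophin receptor, followed a like course. Its ratio ran from 0.0717 to 0.104 in myenteric and from 0.121 to 0.297 in submucosal libraries, without overlap (log2 fold change per anchor 1.29, SE 0.42, adjusted p = 0.00845, also below the median gene's 2.29). In CPM its log2 fold change was -0.26 (SE 0.50, adjusted p = 0.756), and -0.71 to -0.023 when 1 colon library was left out. Apoe, which macrophages also express strongly, was higher per anchor as well (2.93, SE 0.75, adjusted p = 0.00178). Its ratio was 76.0, 78.6 and 90.7 in submucosal F1, F2 and M1, 15.0 in F3 and 6.03 in M3, the last within the myenteric range of 5.13 to 8.90. The macrophage and dendritic cell list summed to 7011 CPM in F1, 7076 in F3 and 259.8 in M3, and the part of that RNA in the Apoe result was not tested. The peripheral myelin protein Pmp22, of the Schwann list, was -0.52 in CPM (adjusted p = 0.328) and 1.43 (SE 0.44, adjusted p = 0.00605) per anchor, again below 2.29. Without submucosal M3 its CPM value was -0.94 (adjusted p = 0.0528).

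**Figure D3:**
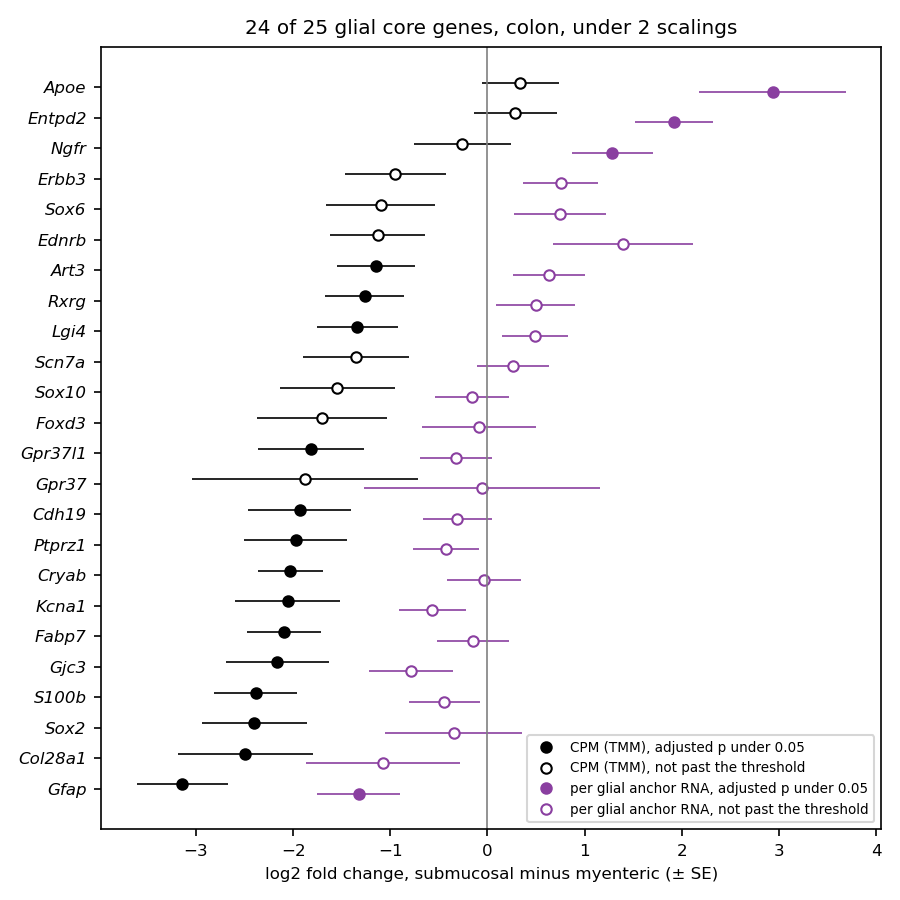
Log2 fold change (± SE) of 24 of the 25 glial core genes, submucosal minus myenteric, in CPM (black) and per glial anchor RNA (purple); filled points passed an adjusted p under 0.05. Scaling to the anchors moves most genes to near 0, leaves Gfap lower at -1.32 and gives positive values to Entpd2 (1.92), Ngfr (1.29) and Apoe (2.93), beside a median of 2.29 over all genes.

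Of 16 myelin and Schwann cell genes tested, 4 fell and 1 rose (median -0.88), beside 11.1% lower and 10.7% higher over all genes. Per anchor 6 were higher and none lower (median 1.02 beside 2.29 over all genes). In CPM without submucosal M3 the counts were 7 and 0. Without myenteric M3, 2 rose. Myelin basic protein Mbp fell from 619 ± 110.3 to 230.3 ± 135 CPM (SD, n = 5 each), a log2 fold change of -1.43 (SE 0.33, adjusted p = 0.0045). Cmtm5, of the oligodendrocyte and Schwann cell lineages, fell by 1.92 and the adaptor Sorbs2 by 1.65 on the log2 scale (adjusted p = 0.00612 and 0.00434).

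Of 17 receptors, gap junction proteins and transporters tested, by which glia sense and clear signals, 3 fell and 2 rose (median 0.70), beside 11.1% lower and 10.7% higher over all genes. Without myenteric M3, 1 fell. Per anchor 12 were higher and none lower (median 2.95 beside 2.29 over all genes). The ADP receptor P2ry1, of purinergic signalling, ran from 50.9 to 263 CPM in myenteric and from 14.5 to 51.8 CPM in submucosal libraries. Its highest submucosal library, M3, overlapped the myenteric range slightly, and the log2 fold change was -2.17 (SE 0.58, adjusted p = 0.0116). It did not pass without myenteric M3 (adjusted p 0.00474 to 0.0534 over the 10 fits). The inward rectifier Kcnj10 ran from 19.4 to 59.2 CPM in myenteric and from 5.64 to 10.7 CPM in submucosal libraries with no overlap (-2.01, SE 0.35, adjusted p = 0.00058). Gja1, the gap junction protein connexin 43, fell by 1.39 (adjusted p = 0.0477), and did not pass without myenteric F2, M1, M2 or M3, or submucosal F1, F2, F3, M1 or M3 (adjusted p 0.0194 to 0.146 over the 10 fits). The UDP receptor P2ry6, which macrophages and epithelium also express, rose by 3.22 (adjusted p = 0.00595). Among submucosal libraries P2ry6 was lowest in the immune-poor M3, at 19.9 CPM against 71.9 to 149 CPM in the others, and among myenteric libraries it was highest in F3, at 28.0 CPM. The part of either RNA in the P2ry6 result was not tested.

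Of 14 genes linked to reactive glia, 7 were lower in submucosal libraries and 2 higher (median -0.90), beside 11.1% lower and 10.7% higher over all genes. Per anchor 6 were higher and 1 lower (median 1.33 beside 2.29 over all genes). The iron-binding lipocalin Lcn2 was 68.6 in F2, 58.3 in F3, 305 in M1, 194 in M2 and 84.6 in M3 CPM in myenteric libraries. It ran from 6.08 to 19.6 CPM in submucosal libraries, below every myenteric one, with a log2 fold change of -3.40 (SE 1.11, adjusted p = 0.0324). It did not pass without myenteric M1 or M2, or submucosal F1, F2, F3 or M1 (adjusted p 0.0226 to 0.0793 over the 10 fits). The sphingosine-1-phosphate receptor S1pr3 (-2.87) and the metalloreductase Steap4 (-2.63) fell with adjusted p of 0.00084 and 0.00894, both without overlap. Of 23 growth factor signalling genes tested, 2 fell and 1 rose, beside 11.1% and 10.7% of all genes. Without submucosal M3, 4 fell, and without any one of the other libraries but myenteric F3 and M1, 1 did. Without myenteric F2, 2 rose, and with the 10 colon libraries alone none rose. Per anchor 11 were higher and none lower, where 76% of all genes were higher. The genes that fell were the GDNF family co-receptors Gfra1 (-2.28, SE 0.46, adjusted p = 0.00174) and Gfra2 (-1.41, SE 0.50, adjusted p = 0.0455). Gfra2 did not pass without myenteric F2, M2 or M3, or submucosal F1, F2, F3 or M1 (adjusted p 0.00297 to 0.111 over the 10 fits). Gfra1 ran from 255 to 652 CPM in myenteric and from 25.8 to 170.1 CPM in submucosal libraries, without overlap. The neurotrophin receptor Ntrk2 rose, from 6 counts in all myenteric libraries to 200 in submucosal ones, 33.9-fold (15.3 to 93.4) with a 95% interval for counting error only in brackets (4.97, SE 1.03, adjusted p = 0.00198). Its submucosal values were 0.289 in F1, 3.56 in F2, 9.64 in F3, 3.70 in M1 and 17.5 in M3 CPM, with F1 inside the myenteric range of 0 to 0.350.

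Outside the lists, a set of genes was lower in submucosal libraries without overlap, also per glial anchor. Gdf10, a TGF-beta family ligand, was 144 in F2, 172 in F3, 73.9 in M1, 47.8 in M2 and 456 in M3 CPM in myenteric libraries. In submucosal libraries it was 0 in F1, 1.60 in F2, 0.381 in F3, 0 in M1 and 5.51 in M3 CPM, and the log2 fold change was -6.86 (SE 1.16, adjusted p = 0.00048), or -5.50 (SE 1.19, adjusted p = 0.00058) per anchor. Chodl, a C-type lectin-like membrane protein, was 134 in F2, 145 in F3, 102 in M1, 67.1 in M2 and 401 in M3 CPM against 0 to 7.41 CPM, with log2 fold changes of -6.15 (SE 0.87, adjusted p = 0.00014) and, per anchor, -4.32. Both were chosen for a large fold change without overlap, and in both submucosal M3 held the highest submucosal value.

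Also lower without overlap were Tmem229a (-7.66), Ctxn3 (-6.48), the collagen IX chain Col9a2 (-5.63), the secreted glycoprotein Nell2 (-5.50), the presynaptic scaffold Rims1 (-5.48), the calmodulin regulator Pcp4 (-5.35) and the muscle creatine kinase Ckm (-8.07), with adjusted p of 0.00055 or less. All submucosal counts of Tmem229a were in F2, so its fold change depended on that library. Their values per anchor ran from -5.60 for Ckm to -3.30 for Rims1. Pirt, a regulator of TRP channels in sensory neurons, had no counts in submucosal libraries and was at least 26.0-fold lower there, against a floor of 3 counts per library. Zcchc12 had 1 count in all submucosal libraries together, against 162 in myenteric ones, 98 of them in M2. Summed RNA of the smooth muscle list was also lower, 1575 to 5672 against 10748 to 35211 CPM, and its part in these differences was not tested.

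The genes with the largest rise outside the lists had few or no myenteric counts. Ms4a4b of T cells, Tbc1d10c, the T cell receptor Tigit, the integrin Itgae of epithelial T cells, the B cell factor Spib and Apol7c had no counts in any myenteric library. Against the floor of 3 counts per library they were at least 27.1-fold (Spib) to at least 73.8-fold (Ms4a4b) higher in submucosal libraries. Cd22, an inhibitory receptor of B cells, and Pla2g4c had 1 myenteric count each, and Rnase6 and Nxpe5 had 2 each. From summed counts Cd22 was 597-fold (107 to 23609) higher, Rnase6 548-fold (151 to 4530.3), Nxpe5 367-fold (101 to 3036) and Pla2g4c 264-fold (47.0 to 10479), where brackets hold exact 95% intervals that cover counting error only. Among these genes submucosal M3 was the lowest library for all but Pla2g4c, as for Apol7c (1.52 CPM against 18.9 to 58.2 in the other 4). Mgat4c, a glycosyltransferase gene, was at 0.164 in F2, 0.875 in F3, 0 in M1, 0 in M2 and 0.110 in M3 CPM in myenteric libraries. In submucosal libraries it was 93.2 in F1, 107 in F2, 30.3 in F3, 141 in M1 and 659 in M3 CPM, highest in the library with the least immune and the most epithelial RNA, and its log2 fold change was 9.60 (SE 1.48, adjusted p = 0.00023). The part of immune and epithelial RNA in these differences was not tested.

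**Figure D4:**
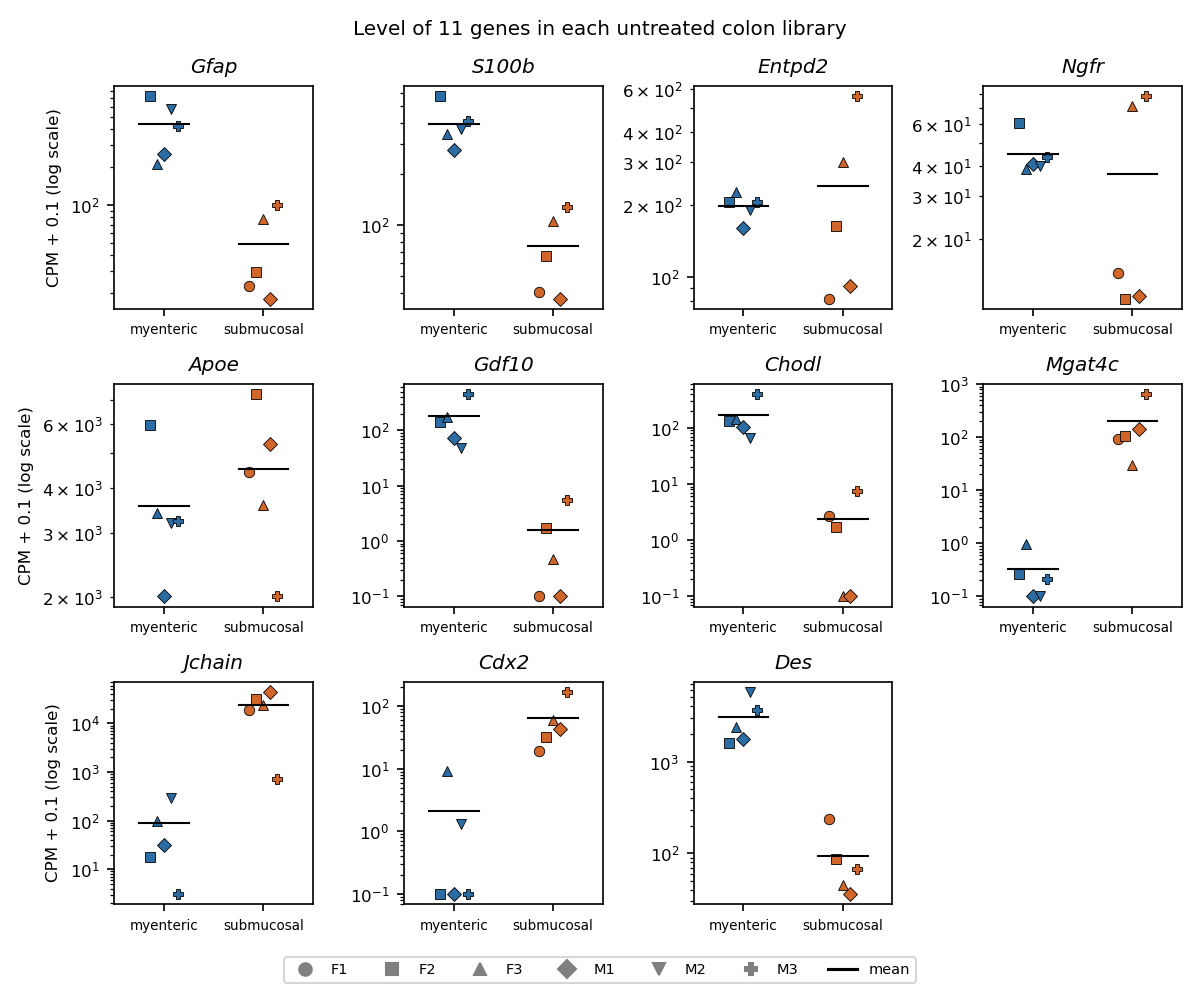
Level (CPM plus 0.1, log axis) of 11 genes in each colon library; shapes give sex and number and bars the mean of 5. Gdf10 and Chodl are separate between the plexuses in all libraries, Entpd2 and Ngfr are split within the submucosal group with F3 and M3 on top, and Jchain is lowest among submucosal libraries in M3.

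In submucosal libraries 15 of 18 T and innate lymphoid cell genes, 9 of 9 B and plasma cell genes, 15 of 18 macrophage and dendritic cell genes, 3 of 5 mast cell and granulocyte genes tested (of 13 listed) and 7 of 7 MHC class II genes rose, beside 10.7% of all genes. With the 10 colon libraries fitted alone, fewer of the genes passed the filter, and 2 of 7 T and innate lymphoid and 1 of 3 mast cell and granulocyte genes rose. In colon myenteric libraries 7 of 18 T cell, 10 of 13 mast cell and granulocyte, 2 of 9 B cell and 2 of 18 macrophage genes were at 0, and a gene at 0 in that whole group could only rise. With such genes and those of few counts set against a floor of 3 counts per library the list medians were 4.99 for T, 6.20 for B, 3.32 for macrophage and dendritic and 3.23 for mast cell and granulocyte genes. Jchain, the joining chain of secreted IgA, was 18574 in F1, 31535 in F2, 23300.5 in F3, 44740.3 in M1 and 727 in M3 CPM in submucosal libraries. It ran from 2.96 to 291 CPM in myenteric libraries, and the log2 fold change was 8.08 (SE 1.76, adjusted p = 0.00297). The macrophage lysozyme Lyz2 was 3709 to 5877 CPM in 4 submucosal libraries and 115 CPM in M3, inside the myenteric range of 74.0 to 364 (log2 fold change 4.06, SE 0.80, adjusted p = 0.00148).

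The T cell receptor chain Trac and the CD3 chain Cd3g had no counts in any myenteric library. Trac was at least 48.2-fold and Cd3g at least 56.5-fold higher in submucosal libraries. The B cell gene Fcmr (at least 31.2-fold) and the eosinophil receptor Ccr3 (at least 14.3-fold) rose as well. The chemokine receptor Ccr7 had 1 myenteric and 684 submucosal counts in all. The dendritic cell integrin Itgax rose by 6.12 on the log2 scale. All its myenteric counts were in M3, so its fold change depended on that library. In submucosal M3, Cd3g, Fcmr and Ccr7 were at 0, where a count of 0 allows up to 0.570 CPM. Of the 49 immune and MHC class II list genes that rose, 10 were above every myenteric library in M3, against 48 to 49 in the other submucosal libraries. Over all 1502 genes that rose, the same counts were 874 in M3 and 1280 to 1434 in the others.

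MHC class II genes, which load peptides for CD4 T cells, rose with a median of 2.81. The class II chain H2-Aa was 4244 in F1, 6886 in F2, 3675 in F3, 4069 in M1 and 159 in M3 CPM in submucosal libraries against 216 to 811 in myenteric libraries (log2 fold change 3.10, SE 0.71, adjusted p = 0.00426), and the invariant chain Cd74 showed 3.08 (SE 0.75, adjusted p = 0.00598). In M3, H2-Aa lay below every myenteric library. Of 9 MHC class I genes, which nearly all cells express, none passed (median 0.15), beside 10.7% higher and 11.1% lower over all genes. At an unadjusted p under 0.05, 1 was higher, and DESeq2 called none. Beta-2-microglobulin B2m had a log2 fold change of 0.05 (SE 0.27, adjusted p = 0.909) and H2-D1 one of -0.11 (SE 0.27, adjusted p = 0.817). Without M3, 2 of the 9 were higher, without myenteric F3 1 was, and scaled to the glial anchors 8 were, where 76% of all genes were. The H2 genes are similar in sequence, so how reads were split among them is uncertain.

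Among the fits that left out 1 colon library, leaving out myenteric F3 moved the number of epithelial genes that passed the most. Of 22 general epithelial genes 7 rose (median 3.06), beside 10.7% of all genes, and 21 rose without myenteric F3 (median 6.39), when 2226 of 14296 genes did. Without myenteric F2, M1 or M3 4 did in each case, with the 10 colon libraries alone 4, with DESeq2 11 and with the replicate block 14. Of 24 secretory and stem cell genes 8 rose and 1 fell, and 20 rose and 2 fell without F3. Without myenteric M1 or submucosal M1, 2 fell as well. Per anchor 22 of the 22 general and 22 of the 24 secretory and stem cell genes were higher, beside 76% of all genes. With the covariates, which include the mean level of these lists, none rose. The intestinal transcription factor Cdx2 was 19.1 in F1, 31.5 in F2, 60.5 in F3, 43.3 in M1 and 168 in M3 CPM in submucosal libraries. In myenteric libraries it was 0 in F2, 8.93 in F3, 0 in M1, 1.21 in M2 and 0 in M3 CPM, and the log2 fold change was 4.98 (SE 1.07, adjusted p = 0.00277), or 8.21 without myenteric F3. Carbonic anhydrase Car1, of colonic surface cells, and the goblet cell product Retnlb rose by 7.77 and 9.27 (adjusted p = 0.00129 and 0.00048). The goblet cell protein Clca1 reached 6439 CPM in M3 against 17.0 to 628 in the other submucosal libraries (log2 fold change 7.55, SE 2.00, adjusted p = 0.0105).

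How many cell cycle genes passed depended on the same library, since 4 of 16 rose (median 1.48), beside 10.7% of all genes, and 15 rose without myenteric F3 (median 4.24), when 2226 of 14296 genes did. The replication helicase subunit Mcm3 ran from 10.4 to 17.8 CPM in myenteric and from 28.9 to 75.9 CPM in submucosal libraries (log2 fold change 1.76, SE 0.38, adjusted p = 0.00261), and Mcm5 was 40.3 CPM in myenteric F3 against at most 5.65 in the other 4 (2.31, SE 0.75, adjusted p = 0.0307). Mcm5 was 4.29 without myenteric F3 and did not pass without myenteric M1, M2 or M3, or submucosal F3 (adjusted p 6.9e-05 to 0.0715 over the 10 fits). With the 10 colon libraries alone 2 of the list rose, and with the replicate block 7. Immediate early and heat shock genes, which cell handling can induce, were higher for 9 of 15 (median 1.10), beside 10.7% of all genes. Without myenteric M1 or without submucosal F1, 5 were, and 6 without myenteric F2 or submucosal F2. The transcription factor Atf3 was 303 in F1, 189 in F2, 167 in F3, 241 in M1 and 39.9 in M3 CPM in submucosal libraries, and ran from 33.6 to 46.5 CPM in myenteric libraries (log2 fold change 2.23, SE 0.46, adjusted p = 0.00194). M3 again sat at the myenteric level for Atf3 and, at 266 CPM, for the mRNA-decay factor Zfp36 (1.96, SE 0.44, adjusted p = 0.00369). Immune RNA, which was low in M3, moved with these genes, and its part in the result was not tested.

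Of 15 smooth muscle genes 13 fell in submucosal libraries (median -2.94), beside 11.1% of all genes, with 12 not overlapping, beside 12.6% of all genes in either direction, and 11 fell without both libraries. Per anchor 0 were higher and 1 lower (median -0.25 beside 2.29 over all genes). The muscle intermediate filament Des was 1585 to 5764 CPM in myenteric and 35.9 to 239 CPM in submucosal libraries (-4.99, SE 0.75, adjusted p = 0.00019), and calponin Cnn1 fell by 4.80 (adjusted p = 0.00055). Of 4 tested genes of interstitial cells of Cajal, the pacemakers of the muscle, 3 fell, among them the receptor Kit (-2.99, SE 0.80, adjusted p = 0.0113) and the chloride channel Ano1 (-2.41, SE 0.76, adjusted p = 0.0275). Ano1 did not pass without myenteric M3, or submucosal F1, F2, F3 or M1 (adjusted p 0.00581 to 0.0938 over the 10 fits). Read beside the same 11.1%, all 8 mesothelial genes tested fell (median -5.04 with genes of few counts at their floor), and 1 of 2 tested with the 10 colon libraries alone. Of them 4 were at 0 in every submucosal colon library and so could only fall. Mesothelin Msln and the uroplakin Upk3b had no counts in submucosal libraries and were at least 139-fold and at least 119-fold lower. Their myenteric values were highest in M1, at 321 and 279 CPM, against at most 48.1 and 39.3 CPM in the other 4.

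The 34 listed neuronal genes summed to 544 to 833 CPM in myenteric and 206 to 418 CPM in submucosal libraries. Of 31 tested, 16 fell and 2 rose (median -1.87), beside 11.1% lower and 10.7% higher over all genes. Per anchor 5 were higher and 6 lower (median 0.20 beside 2.29 over all genes). With the 10 colon libraries alone 6 of 20 fell and none rose, and 1 rose with the replicate block or without myenteric F2, M1 or M3 or submucosal F2 or M3. The nitric oxide synthase Nos1, of inhibitory motor neurons, was 9.00 in F2, 14.5 in F3, 4.13 in M1, 56.2 in M2 and 7.23 in M3 CPM in myenteric libraries and at most 1.24 CPM in submucosal libraries (-4.61, SE 0.88, adjusted p = 0.00119). The vesicular acetylcholine transporter Slc18a3 had no counts in submucosal libraries and was at least 2.14-fold lower, and it did not pass without myenteric F2 or M1, or submucosal F1, F2 or F3 (adjusted p 0.0144 to 0.089 over the 10 fits). The transcription factor Tlx2 and the choline transporter Slc5a7 had 1 submucosal count each, against 56 and 66 myenteric counts.

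Of 14 fibroblast genes 2 fell (median -0.06), beside 11.1% lower and 10.7% higher over all genes. Per anchor 10 were higher and none lower (median 2.07 beside 2.29 over all genes). In CPM Col6a3 fell by 1.76 and the proteoglycan Lum by 1.54 on the log2 scale (adjusted p = 0.00269 and 0.0453). Lum did not pass without myenteric F2, F3 or M3, or submucosal F1, F2, F3, M1 or M3 (adjusted p 0.0215 to 0.148 over the 10 fits). Of 15 vessel genes 4 fell and 1 rose, beside 11.1% lower and 10.7% higher over all genes. Per anchor 9 were higher and none lower (median 2.13 beside 2.29 over all genes). Plvap, of fenestrated blood capillaries, was 250.4 to 1344 CPM in submucosal libraries against 34.2 to 159.6 CPM in myenteric libraries (2.73, SE 0.85, adjusted p = 0.0249), and did not pass without myenteric F2 or M3, or submucosal F1 (adjusted p 0.0224 to 0.073 over the 10 fits). The lymphatic genes Flt4 (-2.54), Lyve1 (-2.36) and Ccl21a (-2.52) fell without overlap (adjusted p = 0.0307, 0.037 and 0.0294). These calls depended on single libraries. Flt4 did not pass without myenteric M1 or M2, or submucosal F1, F2, F3 or M1 (adjusted p 0.019 to 0.0738 over the 10 fits), Lyve1 without myenteric F2, M1, M2 or M3, or submucosal F1, F2, F3 or M1 (adjusted p 0.0203 to 0.0888 over the 10 fits) and Ccl21a without myenteric M1, or submucosal F1, F3 or M1 (adjusted p 0.0218 to 0.087 over the 10 fits). The count of vessel genes that fell was 0 without submucosal F3 or M1, 1 without myenteric M1 or M2 or submucosal F1 or F2, 2 without myenteric F2 or M3, and 1 with the replicate block. Ccl21a has near-identical copies, so its counts are uncertain.

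Of 19 niche signals that act on the epithelium, 3 were higher and 3 lower (median 0.00), shares not far from those of all genes (10.7% and 11.1%). DESeq2 called 6 higher, and with the 10 colon libraries alone 1 was lower. Per anchor 10 were higher and none lower (median 1.70 beside 2.29 over all genes). The ligand Bmp2 rose (1.58, SE 0.45, adjusted p = 0.0149), with myenteric F3 at 36.1 CPM inside the submucosal range of 33.2 to 69.3. The Wnt amplifier Rspo1 (-5.82, SE 1.64, adjusted p = 0.0151) and the Wnt inhibitors Dkk2 (-3.74, SE 1.04, adjusted p = 0.0137) and Sfrp1 (-1.40, SE 0.42, adjusted p = 0.0202) fell. Rspo1 did not pass without myenteric M1 (adjusted p 0.00864 to 0.0597 over the 10 fits), Dkk2 without myenteric M3 (adjusted p 0.00748 to 0.0716 over the 10 fits) and Sfrp1 without myenteric F2, or submucosal F1 (adjusted p 0.00943 to 0.0717 over the 10 fits). Rspo1 was 0 in F2, 2.80 in F3, 82.9 in M1, 16.9 in M2 and 10.5 in M3 CPM in myenteric libraries, highest in M1, the library with the most mesothelial RNA, whose part in the result was not tested. Of 16 interferon-stimulated genes tested, 3 were lower and 1 higher (median -0.02), beside 11.1% lower and 10.7% higher over all genes. Per anchor 13 were higher and none lower (median 2.26 beside 2.29 over all genes). In CPM 1 was lower with RLE size factors, with no filter, with the 10 colon libraries alone, with the replicate block, or without myenteric F2, M1 or M2 or any one of submucosal F1, F2, F3 and M1. The antiviral genes Ifit3, Ifit2 and Ifit1 fell by 1.28, 0.94 and 1.02 on the log2 scale (adjusted p = 0.0113, 0.0448 and 0.048). Ifit2 was -0.62 without myenteric M2 and did not pass without myenteric F2, M1 or M2, or submucosal F1, F2, F3, M1 or M3 (adjusted p 0.0134 to 0.179 over the 10 fits) and Ifit1 without myenteric F2, M1, M2 or M3, or submucosal F1, F2, F3 or M1 (adjusted p 0.0105 to 0.148 over the 10 fits). The oligoadenylate synthetase Oas1a rose (1.96, SE 0.33, adjusted p = 0.00045), with 4.38 to 12.4 CPM in myenteric and 25.9 to 48.4 CPM in submucosal libraries. Oas1a and the Ifit genes belong to families of similar copies. Of 8 mitochondrially encoded genes 7 were lower (median -1.18), beside 11.1% of all genes, as in mt-Nd4 (-1.57) and mt-Nd2 (-1.53). Per anchor 4 were higher and none lower (median 1.26 beside 2.29 over all genes). Nuclear copies of such genes can share reads.

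The small intestine, with 6 libraries per plexus of the same genotype and no injection, was used to ask whether the layer difference was particular to the colon. There 43.5% of genes differed between plexuses, and for 1.19% of genes the difference itself differed between the 2 regions (interaction term). Of 364 list genes tested, 19 passed that test, 2 of them of the glial core, and Ntrk2, Vim and Hey1 of other glial lists. Median log2 fold changes of the glial core list were -1.70 in colon and -3.21 in small intestine.

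Entpd2 and Ngfr were the pair. In the small intestine Entpd2 ran from 139 to 255 (median 234) CPM in myenteric and from 21.4 to 103 (median 42.1) CPM in submucosal libraries, a log2 fold change of -2.09 (SE 0.41, adjusted p = 0.00032), against 0.29 in colon. The difference between regions was 2.38 (SE 0.59, adjusted p = 0.047). Ngfr ran from 126 to 288 (median 194) CPM in myenteric and from 6.72 to 41.3 (median 20.3) CPM in submucosal small intestine (-3.21, SE 0.50, adjusted p = 3.3e-05), and the difference was 2.95 (SE 0.69, adjusted p = 0.04). Mean Entpd2 was 196 CPM in myenteric and 240 CPM in submucosal colon, against 210 and 49.1 CPM in small intestine. In the same order, mean Ngfr was 44.7 and 37.2 CPM in colon, against 190.5 and 20.7 CPM in small intestine. The myenteric level of Ngfr was thus also lower in the colon.

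Per glial anchor, the regional difference did not pass, where 0.277% of all genes did (adjusted p = 0.399 for Entpd2 and 0.267 for Ngfr). The Entpd2 ratio in small intestine was 0.258 to 0.471 in myenteric and 0.280 to 0.923 in submucosal libraries, and it was higher in submucosal ones (log2 0.89, SE 0.36, adjusted p = 0.0227), on a scale where 85.8% of all genes passed. The Ngfr ratio did not pass there (-0.33, adjusted p = 0.409). The Gfap ratio was 0.224 to 0.868 in myenteric and 0.0616 to 0.245 in submucosal small intestine (log2 -1.81, SE 0.40, adjusted p = 0.00019), lower as in the colon.

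**Figure D5:**
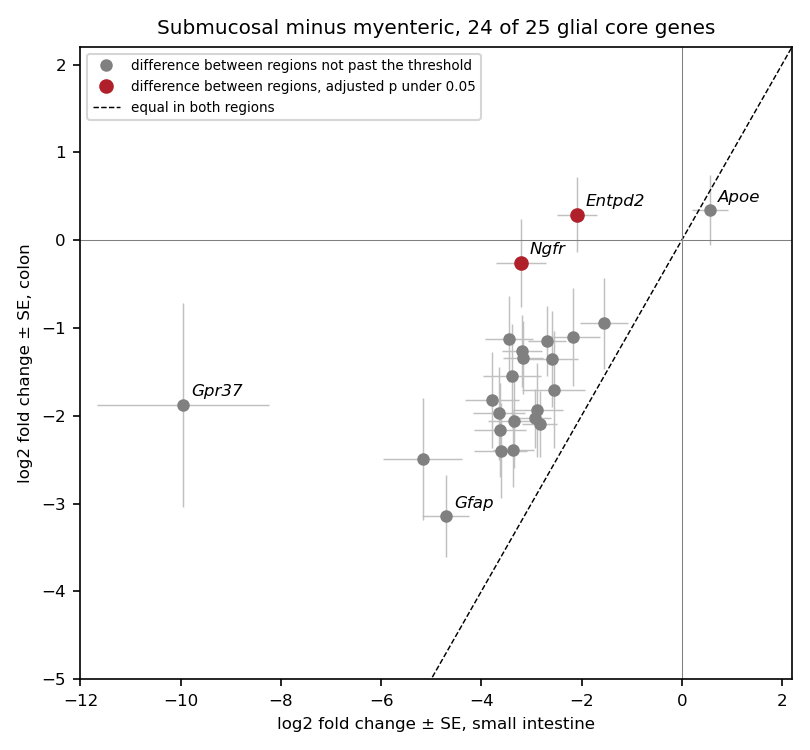
Log2 fold change (± SE), submucosal minus myenteric, of 24 of the 25 glial core genes in small intestine (horizontal) and colon (vertical); red points passed the test of the difference between regions. Most genes are lower in both regions, and Entpd2 and Ngfr lie near 0 in the colon but at -2.09 and -3.21 in the small intestine.

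Ntrk2 rose in the colon and did not pass in the small intestine (-0.20, SE 0.77, adjusted p = 0.856), with a difference of 5.17 (SE 1.25, adjusted p = 0.0451). Outside the glial lists, Car1 and Retnlb rose in the colon and did not pass in the small intestine (-0.70, SE 1.17, adjusted p = 0.658 and -1.56, SE 1.24, adjusted p = 0.323), with differences of 8.47 (SE 1.80, adjusted p = 0.0205) and 10.84 (SE 1.92, adjusted p = 0.00942). Dkk2 fell in the colon and rose in the small intestine (2.63, SE 0.91, adjusted p = 0.0227), a difference of -6.37 (SE 1.38, adjusted p = 0.0229). Gdf10 and Chodl, the genes described above, were -5.45 (SE 1.03, adjusted p = 0.00026) and -3.08 (SE 0.70, adjusted p = 0.00128) in the small intestine, and their regional difference did not pass (adjusted p = 0.716 and 0.138).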

How the data were processed

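RNA of enteric glial cells was extracted with a micro-scale column kit and made into libraries with Smart-seq2, a PCR-based method for whole transcripts that uses no molecular identifiers and does not mark the strand, per the labels' protocols. Antisense and overlapping genes therefore cannot be told apart. Reads were trimmed with Trim Galore 0.4.4 and aligned with STAR 2.5.3, on GRCm38, and DESeq2 was used, per the submitters' processing notes; the read counter is not given in the sources used here. The authors deposited raw counts per gene symbol, 21051 symbols in 1 table; 16 of its columns, of other groups, were not used here.

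The 22 untreated libraries of colon and small intestine, grouped by the labels, were fitted together with edgeR 4.0.16 in R 4.3.3 (filterByExpr, TMM, glmQLFit, glmQLFTest, two-sided, Benjamini-Hochberg over all 14090 genes tested, adjusted p under 0.05), giving one estimate of the spread. The standard error is the fold change divided by the square root of F. 3 contrasts were tested. Log2 fold changes are submucosal minus myenteric, and CPM are counts scaled to a common library total with the TMM factors. Values per glial anchor use offsets from the geometric mean of 5 anchor genes' counts plus 1. The script was tested on simulated data. Total counts and a floor of 3 counts set the precision. Libraries of the same group differed beyond counting noise in every pair, so none was counted as a duplicate.

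Alternatives were other size factors, DESeq2 1.42.0, no filter, fewer libraries, covariates, a replicate block and a test for a difference of over 2-fold. The members and lists were chosen with earlier results of these data known. Named genes were taken from the following sets, not all members of which are named. The sets held the glial core list and the most abundant gene of each cell type list. Each other list gave up to 4 called genes of largest fold change (average log2 CPM of 3 or more), or its most abundant members. Outside the lists, each direction gave the 10 of largest fold change without overlap at an average log2 CPM of 4 or more. These were ranked by CPM and per anchor, leaving out predicted genes. Ntrk2, Vim and Hey1 are named outside these rules, after their values were seen, to complete a count. Single-gene results for 2 genes of the lists are not reported here. Promoter sequences are RefSeq's on GRCm38.p6.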

Additional observations from a re-analysis of the deposited data

Results flagged for a closer look

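In each group of 5, the highest and the lowest library were compared with the rest, for 106 named genes and 24 list sums. A library was singled out where its gap to the nearest other library exceeded 0.71 of the group's range (Dixon's 95% value for 5). This held for 48 of 260 groups (18.5%). Dixon's value gives about 1 in 20 for independent, normally distributed levels. CPM were not shown to be such levels, and the share that chance gives here was not measured. Of them, 12 fell on submucosal M3, 9 on myenteric F3 and 8 on myenteric M1. For each, the level is followed by the range of the other 4 libraries and the gap as a share of the range; the library is the highest unless stated.

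Submucosal M3 stood above its group for the glial signalling receptors, gap junctions and transporters list (1420.5 CPM against 566 to 662; 0.888) and the interstitial cell of Cajal list (311 CPM against 69.8 to 102; 0.864). Among genes it did so for Ano1 (118 CPM against 7.49 to 34.7; 0.755), Cdx2 (168 CPM against 19.1 to 60.5; 0.722), Clca1 (6439 CPM against 17.0 to 628; 0.905), Col28a1 (75.2 CPM against 4.48 to 15.1; 0.850), Col6a3 (178 CPM against 46.6 to 74.0; 0.791), Mgat4c (659 CPM against 30.3 to 141; 0.823), P2ry1 (51.8 CPM against 14.5 to 22.1; 0.797), Pcp4 (3.04 CPM against 0.533 to 1.14; 0.757), Pmp22 (1248 CPM against 334 to 591; 0.718) and Sfrp1 (573 CPM against 263 to 344; 0.739).

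Myenteric F3 stood above its group for the epithelium, general list (4419 CPM against 47.8 to 559; 0.883), the epithelium, secretory and stem list (3848 CPM against 150.1 to 358; 0.944), the mast cell and granulocyte list (8.93 CPM against 0 to 1.30; 0.854) and the cell cycle list (1019 CPM against 79.4 to 130.1; 0.946). Among genes it did so for Cdx2 (8.93 CPM against 0 to 1.21; 0.865), Mcm5 (40.3 CPM against 0.164 to 5.65; 0.863), Mgat4c (0.875 CPM against 0 to 0.164; 0.813), Nxpe5 (0.350 CPM against 0; 1.00) and P2ry6 (28.0 CPM against 1.21 to 7.25; 0.774).

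Myenteric M1 stood above its group for the mesothelium list (1198 CPM against 72.3 to 287; 0.809). Among genes it did so for Ccl21a (2807 CPM against 591 to 1211; 0.720), Ccr7 (0.217 CPM against 0; 1.00), Msln (321 CPM against 0.327 to 48.1; 0.851), Pla2g4c (0.217 CPM against 0; 1.00), Rspo1 (82.9 CPM against 0 to 16.9; 0.796) and Upk3b (279 CPM against 0 to 39.3; 0.859). It stood below its group for Gpr37l1 (369.7 CPM against 699 to 802; 0.760).

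Myenteric F2 was highest for Cd22 (0.164 CPM against 0; 1.00), Col9a2 (91.6 CPM against 2.98 to 27.2; 0.727) and Ngfr (60.4 CPM against 38.9 to 43.5; 0.785). Myenteric M2 was highest for Nos1 (56.2 CPM against 4.13 to 14.5; 0.800) and Zcchc12 (29.6 CPM against 0.652 to 3.50; 0.902). Myenteric M3 was highest for the glial signalling receptors, gap junctions and transporters list (1075 CPM against 463 to 609.8; 0.761) and the interstitial cell of Cajal list (1044 CPM against 308 to 435; 0.827), and for Ano1 (528 CPM against 124 to 181; 0.859), Chodl (401 CPM against 67.1 to 145; 0.766) and Itgax (2.41 CPM against 0; 1.00). Submucosal F1 was highest for Des (239 CPM against 35.9 to 86.2; 0.752), Rspo1 (1.45 CPM against 0 to 0.370; 0.744) and Zcchc12 (0.145 CPM against 0; 1.00). Submucosal F2 was highest for Ccr3 (22.1 CPM against 2.09 to 7.77; 0.716), Slc5a7 (0.178 CPM against 0; 1.00) and Tmem229a (1.60 CPM against 0; 1.00). Submucosal F3 was highest for the mast cell and granulocyte list (133 CPM against 28.1 to 57.0; 0.724), and for Tlx2 (0.127 CPM against 0; 1.00). Submucosal M1 was highest for Pla2g4c (42.9 CPM against 1.27 to 9.42; 0.804). Several of these are levels of 1 or a few counts over libraries at 0.

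The difference between submucosal and myenteric libraries itself differed between colon and small intestine, by the interaction term of the same fit, for Car1 (8.47; 7.77 in colon and -0.70 in small intestine), Dkk2 (-6.37; -3.74 in colon and 2.63 in small intestine), Entpd2 (2.38; 0.29 in colon and -2.09 in small intestine), Ngfr (2.95; -0.26 in colon and -3.21 in small intestine), Retnlb (10.8; 9.27 in colon and -1.56 in small intestine) and Ntrk2 (5.17; 4.97 in colon and -0.20 in small intestine), on the log2 scale.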

How the results depend on the processing

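Of the 106 genes whose values were followed, 64 kept their direction under every alternative that gave them a value. The fit of the 10 colon libraries alone gave one for 88 of them, and no gene kept both its direction and its side of the threshold under all alternatives, the covariates included. The counts of called genes (3069, of which 1502 higher and 1567 lower) became 3047 with RLE size factors, 3798 with DESeq2, 2861 with no filter, 2907 with sex as a covariate and 4095 without both libraries that stood apart, the last chosen after seeing the data. They became 1902 (838 higher, 1064 lower) with the 10 colon libraries alone, 942 (609 and 333) when testing for a difference of over 2-fold, 3 (1 and 2) with immune and epithelial covariates, and 10841 (10706 and 135) when scaled to the glial anchors. Leaving out 1 colon library gave 2243 to 4045 genes, 1153 to 2226 higher and 1090 to 1819 lower. The difference between regions passed for 575 genes with DESeq2 against 168, and the small intestine contrast for 6779 against 6123. In the test for over 2-fold, no gene of the fibroblast, vessel, cell cycle or mitochondrially encoded lists passed. The share of calls that were higher was 48.9%, and 98.8% scaled to the anchors.

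Scaled to the anchors, the sign changed for Art3 (0.63), Col6a3 (0.24), Ednrb (1.39), Erbb3 (0.75), Gfra2 (0.22), Gja1 (1.16), H2-D1 (2.19), Ifit1 (1.20), Ifit2 (1.48), Ifit3 (0.80), Kcnj10 (0.38), Lgi4 (0.49), Lum (0.67), Mbp (0.40), Ngfr (1.29), Pmp22 (1.43), Rxrg (0.49), Scn7a (0.27), Sfrp1 (0.84), Sorbs2 (0.48), Sox6 (0.75), mt-Nd2 (0.85) and mt-Nd4 (0.79), log2 values in brackets. With the 2 covariates it changed for Apoe (-0.32), Art3 (0.99), Ccr7 (-1.73), Cd74 (-1.34), Cdh19 (1.29), Cmtm5 (0.26), Col28a1 (0.36), Erbb3 (0.63), Fcmr (-1.13), Foxd3 (1.01), Gfra2 (0.73), Gpr37 (3.94), Gpr37l1 (0.22), H2-Aa (-1.91), Ifit1 (0.94), Ifit3 (0.13), Jchain (-5.22), Lgi4 (0.11), Lyz2 (-1.08), Mcm5 (-0.030), Ngfr (1.71), P2ry6 (-0.34), Pmp22 (0.93), Ptprz1 (0.38), Scn7a (1.58), Sfrp1 (0.60), Sorbs2 (0.56), Sox10 (0.47) and Sox6 (1.53). B2m, near 0, turned to -0.070 with sex, to -0.016 with the 2 covariates and ranged from -0.090 to 0.23 when 1 library was left out. Over the same, Entpd2 ranged from -0.30 to 0.51. Entpd2 turned to -0.30 without submucosal M3 and to -0.25 without both libraries. For the changes with covariates and scaling, the cause was not tested.

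The replicate block used sex and number as a pairing. Correlations of same-numbered libraries' deviations were 0.0752 (F2), -0.0965 (F3), 0.0259 (M1) and 0.0808 (M3), so the numbers were not taken to pair the libraries; whether any shared a mouse is not given in the labels. With the block 2780 genes passed in the colon (1417 higher, 1363 lower), 6302 in the small intestine and 141 for the difference, and B2m turned to -0.084. The lowest count that differs from none is set by depth: a count of 0 allows up to 0.329 to 1.11 CPM, depending on the library.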
